A study of Mus musculus with 16 samples.

Results

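The MYC, MAX and MXD network is a family of transcription factors that bind DNA in pairs, and 10 of its genes were followed here in hematopoietic stem cells (HSCs): Myc, Mycn, Mycl, Max, Mxd1, Mxd3, Mxd4, Mxi1, Mnt and Mlx. They were chosen by name from a count table of 46078 genes, and each of the 10 names stood on 1 line of it. Of the table, 13661 genes passed the filter on low counts, among them 9 of the 10 members. Mycl did not pass. The data are bulk RNA sequencing of HSCs split by surface MAC-1, an integrin of CD11B and CD18 that is otherwise known from myeloid and NK cells.

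All HSCs were labelled wild type and B6.SJL (LY5.1) and were LSK SLAM cells, negative for CD48 and positive for CD150. Steady-state (SS) HSCs were untreated and were sorted into SS MAC-1- (3 samples) and SS MAC-1low (3 samples). The 4 week HSCs came from recipients irradiated with 900 cGy and given 8000 LSK cells 4 weeks earlier. By the study's methods these recipients were of another strain (LY5.2, C57Bl/6NTac) and also received supporting LY5.2 whole bone marrow. HSCs of the donor strain were sorted into 4 week MAC-1- (3 samples), 4 week MAC-1low (4 samples) and 4 week MAC-1+ (3 samples). Ages are not given in the labels, and nothing in them says whether samples of 1 population came from separate mice, so p-values measure the spread between these samples, which may be technical.

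MAX is the shared partner of the network. MYC, MYCN and MYCL pair with MAX on E-box DNA and activate genes for ribosomes, nucleotides and growth, while MXD1, MXD3, MXD4, MXI1 and MNT pair with MAX on the same sites and recruit the SIN3 and HDAC corepressors. MLX pairs with some MXD proteins and with MNT, and also with MLXIP and MLXIPL, which respond to glucose. In HSCs, MYC is known for its part in the balance between self-renewal and differentiation, and MYCN for acting beside it. Only mRNA was measured here, and MYC proteins are short-lived, so the values say nothing of protein.

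The E-box that MYC-MAX and MXD-MAX pairs prefer is CACGTG, which reads the same on both strands. It was searched in RefSeq promoter windows of the build GRCm38.p6, from 250 bases before to 50 bases after each start. Of all 32851 windows, 7.15% held it, or by gene 8.09% of 27025. Of the members, 9 had a window and Myc had none, and 4 of the 9 held the motif: Max, Mxd4, Mnt and Mlx. Of 36 MYC-induced targets described further on, 28 had a window and 10 of these held it. Among the 8 of those targets that were lower in 4 week MAC-1+ HSCs, 6 had a window, Srm and Npm1 had none, and Eif5a, Ldha and Nme1 held the motif. A match describes letters in a window, not a bound site. The stretches of 30 bases below show the E-box, in capitals, as it stands before members and before targets that differed between the populations. They run 5′ to 3′ on the strand of the gene.
Mxd4, chr5:34187912-34187941, minus strand: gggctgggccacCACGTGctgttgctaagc
Mnt, chr11:74830789-74830818, plus strand: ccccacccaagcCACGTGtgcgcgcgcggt
Mlx, chr11:101087238-101087267, plus strand: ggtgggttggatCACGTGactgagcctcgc
Ldha, chr7:46845647-46845676, plus strand: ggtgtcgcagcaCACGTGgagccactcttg
Ldha, chr7:46845744-46845773, plus strand: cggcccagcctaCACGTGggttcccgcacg
Eif5a, chr11:69921443-69921472, minus strand: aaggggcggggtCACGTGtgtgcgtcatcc
Eif5a, chr11:69920791-69920820, minus strand: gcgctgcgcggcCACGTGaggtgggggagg
Nme1, chr11:93968273-93968302, minus strand: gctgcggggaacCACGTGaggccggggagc
Nme1, chr11:93968037-93968066, minus strand: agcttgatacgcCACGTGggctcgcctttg
In Mxd4 the E-box began 219 bases before the RefSeq start, in Mnt 123 and in Mlx 40. In Ldha the E-boxes began 145 and 48 bases before it. The E-box of Max lay across the start and is not shown.

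Total counts ran from 13781278 to 28580658 per sample, and 14533 to 17576 genes had at least 1 count. Levels are given as CPM, counts scaled to library size with edgeR's TMM factors, and a count of 0 allowed up to 3 counts, or 0.112 to 0.220 CPM depending on the sample, for counting error alone. As a check of the labelled cell type, Kit, Ly6a (SCA1) and Slamf1 (CD150) had counts in all 16 samples. Slamf1 lay at 0.126 CPM in 4 week MAC-1+ replicate 2, against a median of 50.2. Cd48, which the sort gated out, had a median of 43.8 CPM and was at 0 in 3 samples. The 7 neutrophil markers summed to 164, 951 and 6947 CPM with MAC-1+ at 4 weeks and to at most 168 elsewhere. Of these S100a8 reached 3911 CPM, S100a9 1584, Camp 921 and Ngp 456. Ltf and Mmp8 were each at 0 in 12 of 16 samples and Lcn2 in 13. The 6 megakaryocyte markers summed to 4251 to 6744 CPM in 4 week MAC-1- samples and to 156 to 1097 in the other 13. Among them Pf4 reached 6366 CPM and the next, Gp1bb, 140. The 6 NK markers summed to 323 to 642 CPM in 4 week MAC-1- and to 16 to 176 with MAC-1+ at 4 weeks, nearly all of it Nkg7. The 10 genes listed as HSC markers summed to 749 to 893 and 2327 to 3399 CPM in the same populations. That list includes Cd34 and also Cd48, which the sort gated out and which reached at most 133 CPM. Monocyte and macrophage markers summed to 346 to 762 CPM in all samples, nearly all of it Lyz2 (346 to 759). Csf1r, Adgre1 and Cx3cr1 of that list were each at 0 in 12 of 16 samples, and Ccr2 in 14. T cell markers summed to at most 7.04 CPM, B cell markers to at most 170, and erythroblast markers to 83.4 to 178 with MAC-1+ at 4 weeks, above the other 13 samples, and to 23.3 to 36.9 with MAC-1-. Of the B cell markers Cd79b reached 156 CPM and the next, Vpreb1, 14.1. Ncr1 of NK cells and Alas2 of erythroblasts were at 0 in all 16 samples. In bulk RNA, fewer cells of a type and less RNA per cell cannot be told apart.

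Per kilobase of exon, the scale on which genes can be compared, Mycn and Myc were the highest members, at means over the 16 samples of 35.7 and 32.8 CPM per kb. Mlx followed at 11.1, Max at 9.91 and Mxi1 at 3.48 CPM per kb. Mxd3, Mxd4, Mnt and Mxd1 lay between 1.19 and 1.76 CPM per kb. Mycl (ENSMUSG00000028654, chr4:122995652-123002485, plus strand), the third MYC gene, had 2 counts in 4 week MAC-1+ replicate 2 and 0 in the other 15 samples, within what a count of 0 allows. By these means both activators stood above Max and above each repressor, though not in each sample: in SS MAC-1low replicate 2 Mycn was at 14.7 and Max at 15.5 CPM per kb.

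Steadiness set the members apart from each other. The coefficient of variation of Myc over the 16 samples was 0.225, and 0.732% of the 683 tested genes of like mean level had a lower one. For Max it was 0.371, with 5.27% of its 683 genes of like level lower, and for Mnt 0.652, with 7.17% lower. Mycn, at 0.458, stood at 72.9%, Mlx at 75.8% and Mxd3 at 73.1%. Like level means the same of 20 equal classes of the tested genes by mean CPM, and no test was made of these shares.

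**Figure D1:**
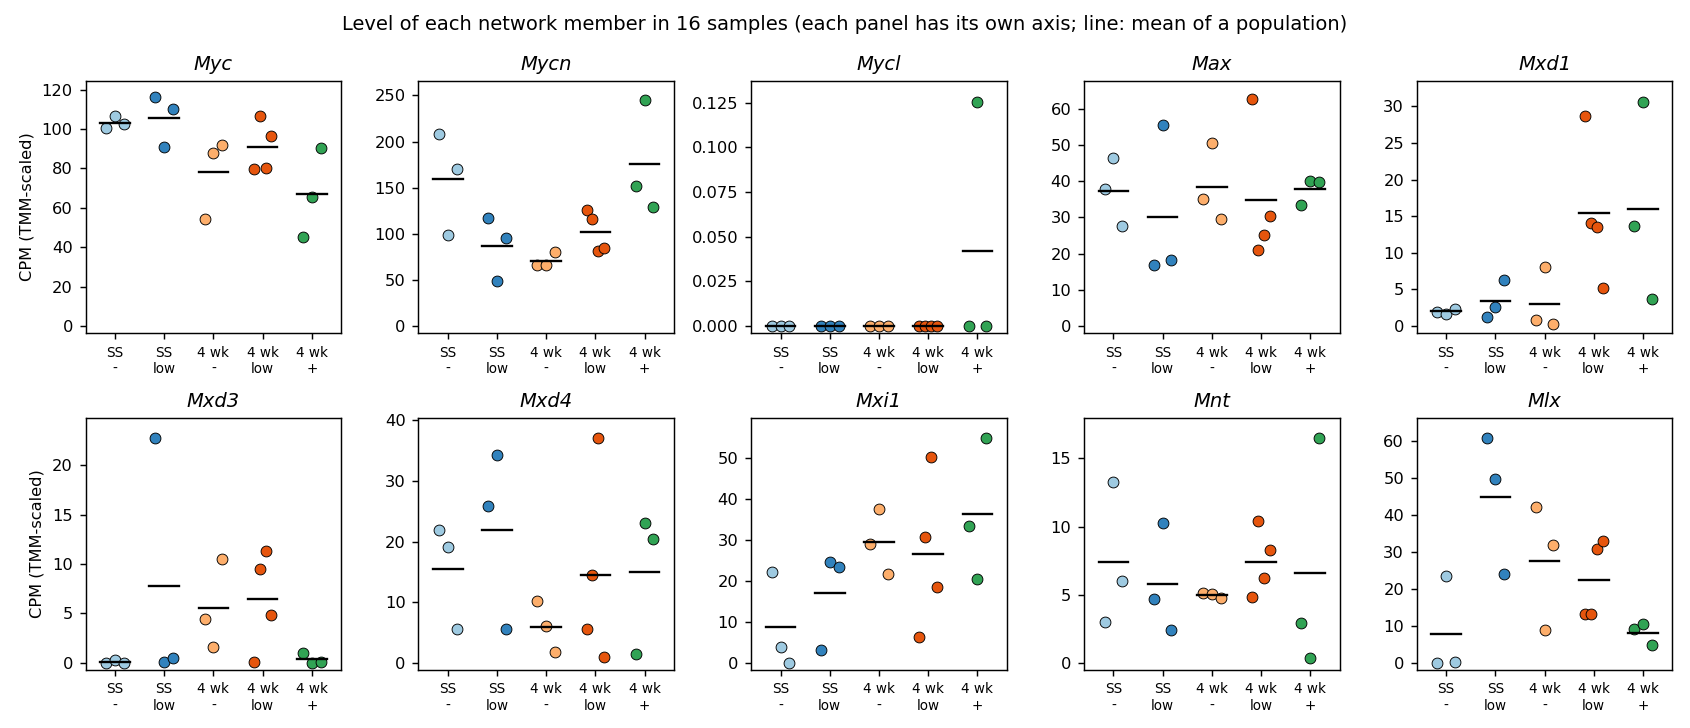
Level of each of the 10 members in CPM (vertical axes, linear, each panel on its own scale) in the 5 populations, with 1 point a sample and a line at the mean. Myc runs from 45.4 to 116 CPM, all Mycn points of 4 week MAC-1+ stand above those of 4 week MAC-1low and MAC-1-, and Mlx is near 0 in 2 of 3 SS MAC-1- samples.

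Myc (ENSMUSG00000022346, GRCm38 chr15:61985391-61990374, plus strand) had its lowest mean in 4 week MAC-1+ HSCs. It measured 45.4, 65.3 and 90.4 CPM with MAC-1+ at 4 weeks, 54.4, 87.9 and 92.0 with MAC-1-, and 79.7, 107, 80.4 and 96.5 with MAC-1low. In SS samples it measured 100, 107 and 102 CPM in MAC-1- and 116, 90.9 and 110 in MAC-1low. The highest 4 week MAC-1+ sample was thus just under the lowest SS sample, while the 3 populations at 4 weeks overlapped. By mean the order was SS MAC-1low (106 ± 13.1 CPM, SD), SS MAC-1- (103 ± 3.24), 4 week MAC-1low (90.8 ± 13.1), 4 week MAC-1- (78.1 ± 20.6) and 4 week MAC-1+ (67.0 ± 22.6), and all neighbours in this order overlapped. For MAC-1+ versus MAC-1- at 4 weeks, the log2 fold change was -0.22 (SE 0.31, 95% interval -0.88 to 0.44, edgeR adjusted p = 0.870). The unadjusted edgeR p was 0.0513 against SS MAC-1low (log2 fold change -0.66) and 0.0635 against SS MAC-1- (-0.62), with adjusted p of 0.417 and 0.385.

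Mycn (ENSMUSG00000037169, chr12:12936093-12941914, minus strand), the paralog of Myc, was the only member with an unadjusted p under 0.05 in edgeR's joint test over 5 populations (adjusted p = 0.212). It measured 152, 246 and 129 CPM with MAC-1+ at 4 weeks, 126, 116, 81.4 and 84.5 with MAC-1low, and 65.7, 66.4 and 79.8 with MAC-1-. The 3 populations at 4 weeks thus stood in the order of their MAC-1 with no overlap, though MAC-1low and MAC-1- nearly met, at 81.4 and 79.8 CPM. By pairs of these populations, 8.23% to 21.7% of all genes were without overlap. The share of genes with this order of all 3 was not computed. In SS samples it measured 208, 98.5 and 171 CPM in MAC-1- and 117, 48.4 and 95.2 in MAC-1low, and these overlapped. By mean the order was 4 week MAC-1+ (175 ± 61.8 CPM, SD), SS MAC-1- (159 ± 55.8), 4 week MAC-1low (102 ± 22.3), SS MAC-1low (86.9 ± 35.1) and 4 week MAC-1- (70.6 ± 7.96), and all neighbours in this order overlapped.

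Of the 8 comparisons, the largest Mycn difference was within the transplanted HSCs. In MAC-1+ versus MAC-1- at 4 weeks its log2 fold change was 1.31 (SE 0.38, 95% interval 0.51 to 2.12), with an unadjusted edgeR p of 0.00337 and an adjusted p of 0.103, which misses the threshold of 0.1. DESeq2 put the adjusted p at 0.00872 and limma-voom at 0.0667, and over 24 alternatives it ran from 0.00872 to 0.341, under the threshold in 7 of them, while the log2 fold change ran from 1.02 to 1.52. Without 4 week MAC-1+ replicate 3, the sample with the highest neutrophil marker sum, the log2 fold change was 1.52 and the edgeR adjusted p 0.112. Without replicate 2, the next in that sum, they were 1.02 and 0.341. All 3 MAC-1+ samples were above all 3 MAC-1- samples, and 21.7% of all genes tested were likewise without overlap. The megakaryocyte, NK, HSC, erythroblast and neutrophil markers also separated these populations, and their part in the result was not tested.

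In the other 7 comparisons the Mycn difference was smaller. Against 4 week MAC-1low the log2 fold change of 4 week MAC-1+ was 0.78 (SE 0.34, edgeR adjusted p = 0.714), and against SS MAC-1low it was 1.01 (SE 0.37, adjusted p = 0.302). Against SS MAC-1- it was 0.14, with a 95% interval from -0.65 to 0.93. The 4 week MAC-1- samples were below SS MAC-1- samples without overlap, at a log2 fold change of -1.17 (SE 0.38, adjusted p = 0.319). MAC-1low relative to MAC-1- gave -0.87 at SS (SE 0.37, adjusted p = 0.521) and 0.53 at 4 weeks (SE 0.35, adjusted p = 0.886). The difference of these, the interaction, was 1.40 (SE 0.51, unadjusted p = 0.0154, adjusted p = 0.470). None of these passed by edgeR. DESeq2 called the contrasts with SS MAC-1low (adjusted p = 0.0934), of 4 week MAC-1- with SS MAC-1- (0.0482) and the joint test (0.0241).

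**Figure D2:**
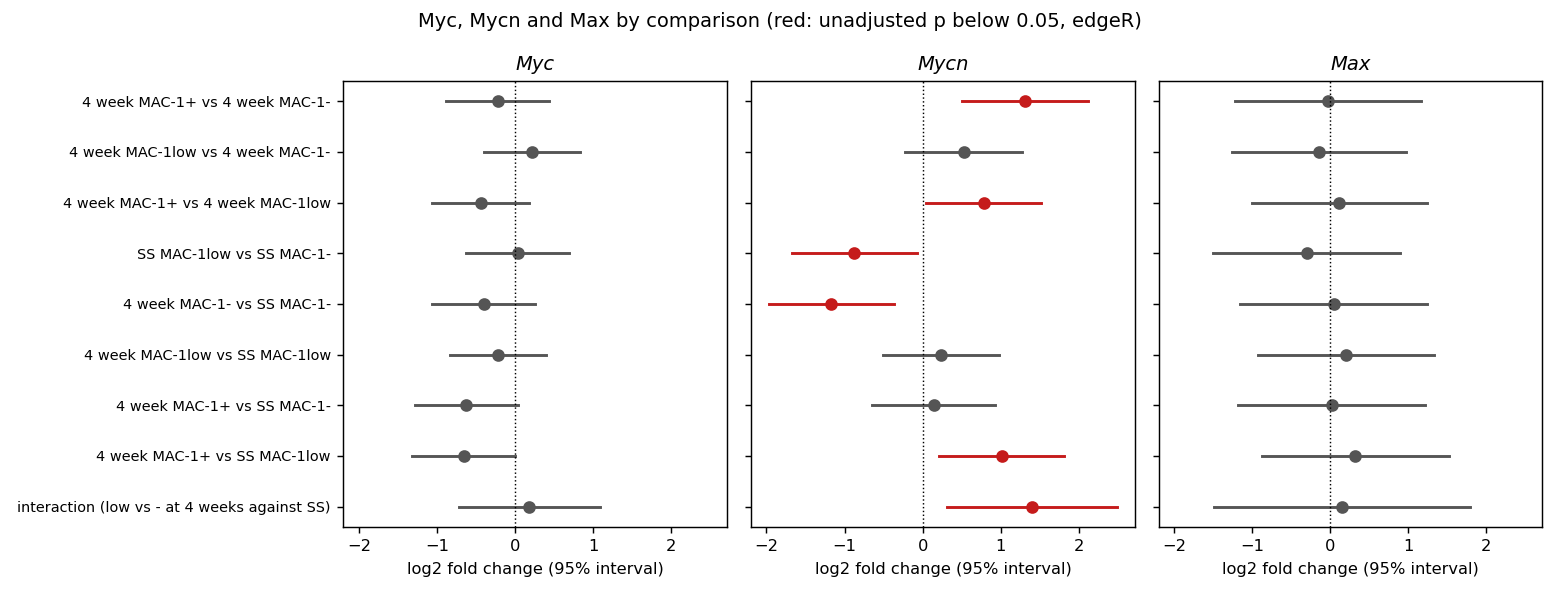
Log2 fold change (horizontal axis) of Myc, Mycn and Max in 8 comparisons and the interaction (vertical axis), with 95% intervals from edgeR and red for an unadjusted p under 0.05. Mycn is red in 6 of the 9, and the Myc and Max intervals all include 0.

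The ratio of Mycn to Myc was computed in each sample and was not tested. Per kilobase, Mycn was 2.76, 3.10 and 1.18 times as high as Myc with MAC-1+ at 4 weeks, and 0.997, 0.623 and 0.716 times with MAC-1-, with no overlap. In 4 week MAC-1low it was 1.3, 0.895, 0.835 and 0.722 times, in SS MAC-1low 0.832, 0.439 and 0.713 times, and in SS MAC-1- 1.71, 0.762 and 1.37 times. Mycn exceeded Myc in all 3 samples of 4 week MAC-1+ and in 0 of 3 of both SS MAC-1low and 4 week MAC-1-. The sum of both genes ran from 62.7 to 98.6 CPM per kb in 4 week MAC-1+ and from 40.0 to 58.1 in 4 week MAC-1-. Over the 16 samples Myc and Mycn had a Pearson r of -0.08 on the log2 scale, as a description.

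**Figure D3:**
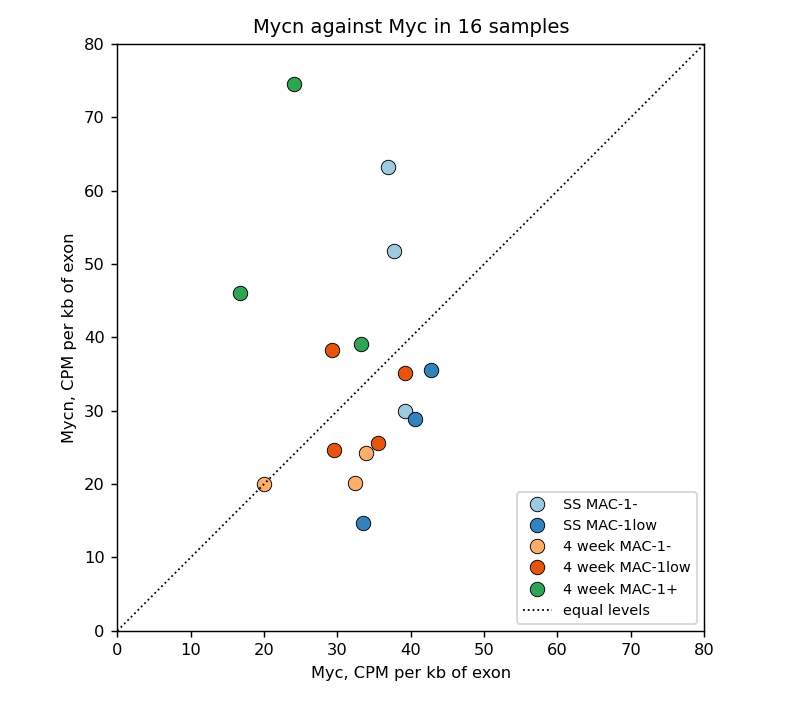
Mycn (vertical axis) against Myc (horizontal axis), both in CPM per kb of exon, with 1 point for each of the 16 samples and a dotted line at equal levels. The 3 points of 4 week MAC-1+, 2 of the 3 of SS MAC-1- and 1 of the 4 of 4 week MAC-1low lie above the line, and those of SS MAC-1low and 4 week MAC-1- lie below it.

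Max (ENSMUSG00000059436, chr12:76937269-76962201, minus strand) ran from 16.9 to 62.8 CPM, with population means from 30.3 to 38.5. It measured 33.3, 40.1 and 39.9 CPM in the MAC-1+ and 35.1, 50.6 and 29.7 in the MAC-1- samples of week 4, which overlapped. The log2 fold change was -0.03 (SE 0.56, 95% interval -1.23 to 1.17, edgeR adjusted p = 0.998), and its sign turned under other scalings, with 0.05 on DESeq2's size factors. The interval leaves room for a change of 2-fold in either direction.

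Among the repressors, Mxd1 (ENSMUSG00000001156, chr6:86647042-86669161, minus strand) is known to rise as myeloid cells mature. At 4 weeks it measured 13.7, 30.7 and 3.68 CPM with MAC-1+, 28.7, 14.1, 13.6 and 5.13 with MAC-1low, and 0.753, 8.0 and 0.302 with MAC-1-. SS samples held 1.91, 1.68 and 2.36 CPM in MAC-1- and 1.20, 2.63 and 6.29 in MAC-1low. Its means were thus highest in 4 week MAC-1+ (16 ± 13.6 CPM, SD) and MAC-1low (15.4 ± 9.78), with wide spread. The 4 week MAC-1+ samples were all above SS MAC-1-, at a log2 fold change of 3.01 (SE 1.33, 95% interval 0.16 to 5.85, edgeR adjusted p = 0.332). DESeq2 gave an adjusted p of 0.0776 and limma-voom 0.558. The sample with the highest neutrophil marker sum, 4 week MAC-1+ replicate 3, had the lowest Mxd1 of its population. Replicate 2, with 951 CPM of neutrophil markers, had the highest. The part of neutrophil RNA in the Mxd1 level was not tested.

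Mxd3 (ENSMUSG00000021485, chr13:55325168-55329823, minus strand), the member linked to S phase, was at 3 counts or fewer in 6 of 16 samples. At 4 weeks it measured 4.39, 1.59 and 10.5 CPM with MAC-1- and 0.95, 0 and 0.0396 with MAC-1+, without overlap, and 0.0613, 9.46, 11.4 and 4.80 with MAC-1low. SS MAC-1- samples held 0, 0.262 and 0 CPM, and SS MAC-1low samples 22.8, 0.0559 and 0.516. Against SS MAC-1-, with 5 counts in all, the log2 fold change was 5.85 (SE 2.67, edgeR adjusted p = 0.465, DESeq2 0.0937) for 4 week MAC-1- and 6.35 (SE 2.73, edgeR adjusted p = 0.521, DESeq2 0.0621) for SS MAC-1low. The latter rested on replicate 1, which held 436 of the 447 counts. Of the exons of Mxd3, 105 bases overlap Prelid1 on the other strand, and the kit does not keep strand.

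Mxi1 (ENSMUSG00000025025, chr19:53310518-53375810, plus strand), also a MAX-binding repressor, had means from 8.67 ± 11.9 CPM (SD) in SS MAC-1- to 36.2 ± 17.3 in 4 week MAC-1+, and its samples overlapped in all 8 comparisons. Mxd4 (ENSMUSG00000037235, chr5:34173883-34187720, minus strand) ran from 0.974 to 37.1 CPM and had its lowest mean in 4 week MAC-1- (5.95 ± 4.18), with overlap in all 8 comparisons as well. Exons of Mxi1 share 194 bases with Gm10197 and those of Mxd4 share 514 with Gm42846, on the other strand. Mnt (ENSMUSG00000000282, chr11:74830920-74845725, plus strand), the broadly expressed repressor, had population means from 5.0 to 7.43 CPM and was tightest in 4 week MAC-1- samples, at 4.77 to 5.15 CPM. In 4 week MAC-1+ it measured 2.94, 0.377 and 16.5 CPM, so that population alone covered the range of all 16 samples.

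Mlx (ENSMUSG00000017801, chr11:101087277-101092207, plus strand) was low in 4 week MAC-1+ HSCs, at 9.02, 10.4 and 4.75 CPM. It measured 13.1, 13.2, 30.7 and 33.1 CPM in 4 week MAC-1low, 42.2, 8.98 and 31.8 in 4 week MAC-1-, and 60.8, 49.8 and 24.0 in SS MAC-1low samples. SS MAC-1- samples held 0, 23.4 and 0.0513 CPM, which is 0, 446 and 1 counts. The 4 week MAC-1+ samples lay below 4 week MAC-1low and SS MAC-1low without overlap, at unadjusted edgeR p of 0.316 and 0.130. SS MAC-1- replicate 2 decided the SS contrast: with it, edgeR put the unadjusted p of MAC-1low versus MAC-1- at SS at 0.124, and without it the adjusted p was 0.0176, with 1 count left in SS MAC-1-. Likewise without it, Mlx was called in 4 week MAC-1- (adjusted p = 0.0112) and 4 week MAC-1+ (0.0171) against SS MAC-1-, in the interaction (0.0199) and in the joint test (0.0204). Exons of Mlx share 385 bases with Psmc3ip on the other strand.

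Over the whole network edgeR called 0 of 9 members at an adjusted p under 0.1 in each of 10 tests, so the counts are read against the share of all 13661 genes called. That share was 3.25% for MAC-1+ versus MAC-1- at 4 weeks, 0.278% for MAC-1low versus MAC-1- at 4 weeks, and 0.0% for MAC-1+ versus MAC-1low at 4 weeks. It was 0.0146% for MAC-1low versus MAC-1- at SS, 0.432% for 4 week MAC-1- versus SS MAC-1-, and 0.0439% for 4 week MAC-1low versus SS MAC-1low. For 4 week MAC-1+ it was 2.36% against SS MAC-1- and 1.42% against SS MAC-1low, and it was 0.0586% in the interaction and 2.22% in the joint test. At an unadjusted p under 0.05, 1 of 9 members passed in MAC-1+ versus MAC-1- at 4 weeks, beside 13.4% of all genes, and 0 to 2 of 9 in each other test, beside 6.85% to 14%. DESeq2 called more genes than edgeR in all 10 tests. It called 1 member in that comparison, beside 10.2% of the genes to which it gave an adjusted p, and 2 in 4 week MAC-1- versus SS MAC-1-, beside 6.83%. It called 1 in MAC-1low versus MAC-1- at SS, beside 5.6%, 1 in 4 week MAC-1+ versus SS MAC-1-, beside 11.0%, 1 in 4 week MAC-1+ versus SS MAC-1low, beside 8.43%, and 1 in the joint test, beside 10.9%. It called 0 of 9 in MAC-1low versus MAC-1- at 4 weeks, beside 3.12%, in MAC-1+ versus MAC-1low at 4 weeks, beside 2.42%, in 4 week MAC-1low versus SS MAC-1low, beside 4.01%, and in the interaction, beside 4.68%. Limma-voom called 1 of 9 in the first comparison, beside 6.52% of all genes, and 0 in the other 9. Its shares of all genes there were 2.34% for MAC-1low versus MAC-1- and 0.0366% for MAC-1+ versus MAC-1low at 4 weeks, 0.0% for MAC-1low versus MAC-1- at SS, 0.637% for 4 week MAC-1- versus SS MAC-1-, and 0.139% for 4 week MAC-1low versus SS MAC-1low. For 4 week MAC-1+ they were 1.62% versus SS MAC-1- and 0.908% versus SS MAC-1low, and they were 0.132% in the interaction and 2.66% in the joint test.

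Members whose samples did not overlap numbered 0 to 3 of 9 per comparison. In MAC-1+ versus MAC-1- at 4 weeks they were Mycn and Mxd3, 2 of 9, beside 21.7% of all genes. In MAC-1low versus MAC-1- at 4 weeks there was Mycn alone, beside 10.8%, and in MAC-1+ versus MAC-1low at 4 weeks Mycn and Mlx, beside 8.23%. In MAC-1low versus MAC-1- at SS it was Mlx, beside 11.3%, and in 4 week MAC-1- versus SS MAC-1- Myc, Mycn and Mxd3, beside 16.6%. In 4 week MAC-1low versus SS MAC-1low 0 of 9 members were free of overlap, beside 10.4%. In 4 week MAC-1+ versus SS MAC-1- they were Myc and Mxd1, beside 17.0%, and against SS MAC-1low Myc, Mycn and Mlx, beside 16.3%.

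Of 36 genes that MYC is known to induce, all tested, edgeR called 8 lower and 0 higher in MAC-1+ than in MAC-1- HSCs at 4 weeks, beside 2.06% of all genes called lower and 1.19% called higher. The log2 fold change was under 0 in 33 of the 36 and its median was -0.93, against 0.07 over all genes tested. In 17 targets the MAC-1+ samples were all below the MAC-1- samples, and in 0 all above, beside 11.5% and 10.2% of all genes. DESeq2 called 11, beside 10.2% of all genes, and limma-voom 10, beside 6.52%, and edgeR called 7 without 4 week MAC-1+ replicate 3. With only both populations in the fit it called 3, and it called 5 when replicate 2 of 4 week MAC-1+ or any 1 of the 4 week MAC-1- samples was left out.

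**Figure D4:**
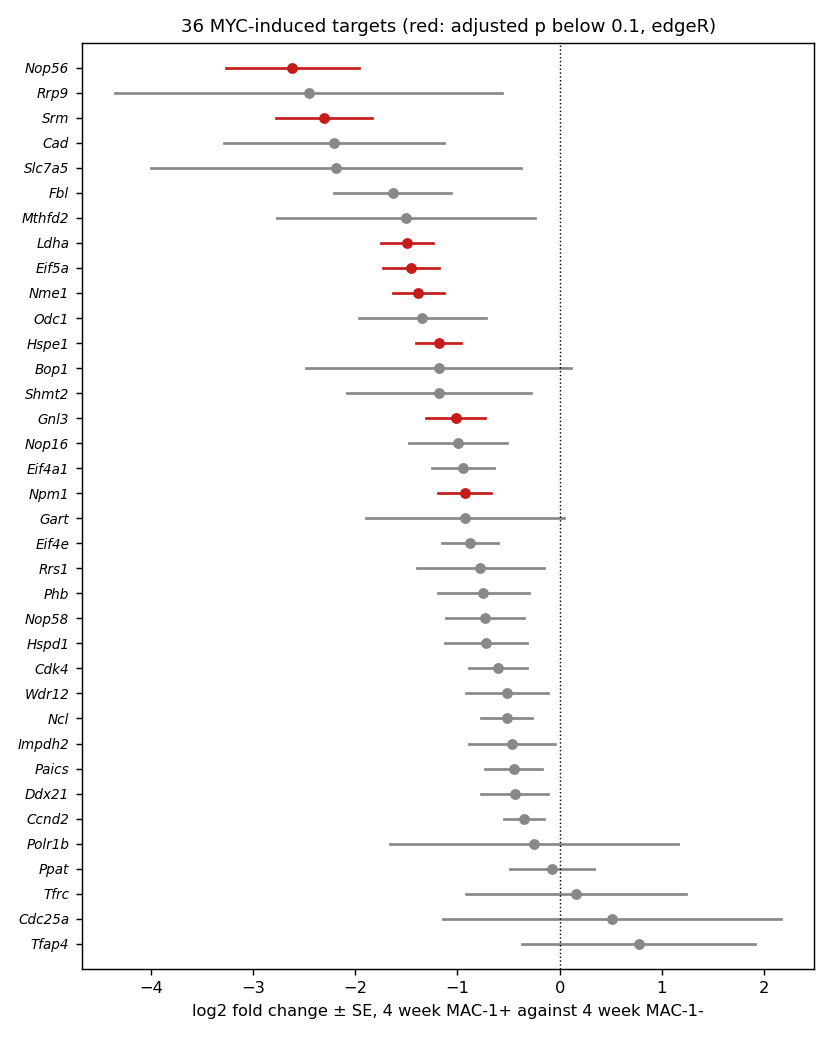
Log2 fold change with its SE (horizontal axis) of the 36 MYC-induced targets (vertical axis) in MAC-1+ versus MAC-1- HSCs at 4 weeks. The 8 red targets, with an adjusted p under 0.1, all lie left of 0, and 3 targets lie right of it.

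Nop56, a core protein of small nucleolar ribonucleoproteins, had the largest called change. It measured 25.2, 3.58 and 29.6 CPM in the MAC-1+ and 100, 149 and 109 in the MAC-1- samples of week 4, a log2 fold change of -2.61 (SE 0.65, edgeR adjusted p = 0.0550). Srm, spermidine synthase, measured 30.5, 9.17 and 46.4 CPM against 154, 142 and 130 (-2.31, SE 0.47, adjusted p = 0.0185). Ldha, a lactate dehydrogenase subunit whose promoter window holds a pair of E-boxes, measured 270, 253 and 255 CPM against 844, 620 and 725 (-1.49, SE 0.26, adjusted p = 0.00721). Eif5a, a translation factor, measured 352, 399 and 412 CPM against 894, 887 and 1401 (-1.45, SE 0.27, adjusted p = 0.0122). In each of these 4 genes the highest 4 week MAC-1+ sample was well below the lowest 4 week MAC-1- sample. The other 4 called targets, named here in addition to the 4 that the rule gives, were the nucleoside diphosphate kinase Nme1 (-1.38), the mitochondrial chaperonin Hspe1 (-1.19), nucleostemin (Gnl3, -1.02) and nucleophosmin (Npm1, -0.93).

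Of the 36 targets, 22 had their highest mean in 4 week MAC-1- and 21 their lowest in 4 week MAC-1+, while others peaked elsewhere, 7 of them in SS MAC-1low and 4 in SS MAC-1-. The 36 targets summed to 12826 to 13620 CPM in 4 week MAC-1-, above all other 13 samples, and to 9176 to 10173 in 4 week MAC-1low. They summed to 8251 to 9341 CPM in SS MAC-1-, 8169 to 8595 in SS MAC-1low and 5497 to 8609 in 4 week MAC-1+. Npm1 made up 4484 to 5219 CPM of the sum in 4 week MAC-1-. Without it the other 35 summed to 7838 to 8641 CPM in 4 week MAC-1-, above the other 13 samples, to 3734 to 4904 in 4 week MAC-1+, below them, and to 5619 to 6835 in the rest. Against SS MAC-1-, 4 week MAC-1+ had 3 targets called lower, Nop56 (-2.77), Srm (-1.76) and Nme1 (-1.27), and against SS MAC-1low 1, Srm (-1.93). Of all genes 2.36% and 1.42% were called there, in either direction. The joint test called 5, beside 2.22% of all genes. In the other 6 tests edgeR called 0 of 36, with 0 to 8 at an unadjusted p under 0.05, DESeq2 0 to 4 and limma-voom 0 to 2. Of all genes, edgeR called 0.0% to 0.432% in these 6, and 6.85% to 10.4% had an unadjusted p under 0.05. DESeq2 called 2.42% to 6.83% of genes there and limma-voom 0.0% to 2.34%. The population with the highest target sum, 4 week MAC-1-, had the lowest mean sum of Myc and Mycn, 50.2 ± 9.28 CPM per kb (SD). Its range, 40.0 to 58.1, overlapped SS MAC-1low (48.2 to 78.2) and 4 week MAC-1low (54.3 to 74.4). It lay below SS MAC-1- (69.2 to 100) and 4 week MAC-1+ (62.7 to 98.6), and none of this was tested. The megakaryocyte markers were highest in the same 4 week MAC-1- samples, and their part was not tested.

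**Figure D5:**
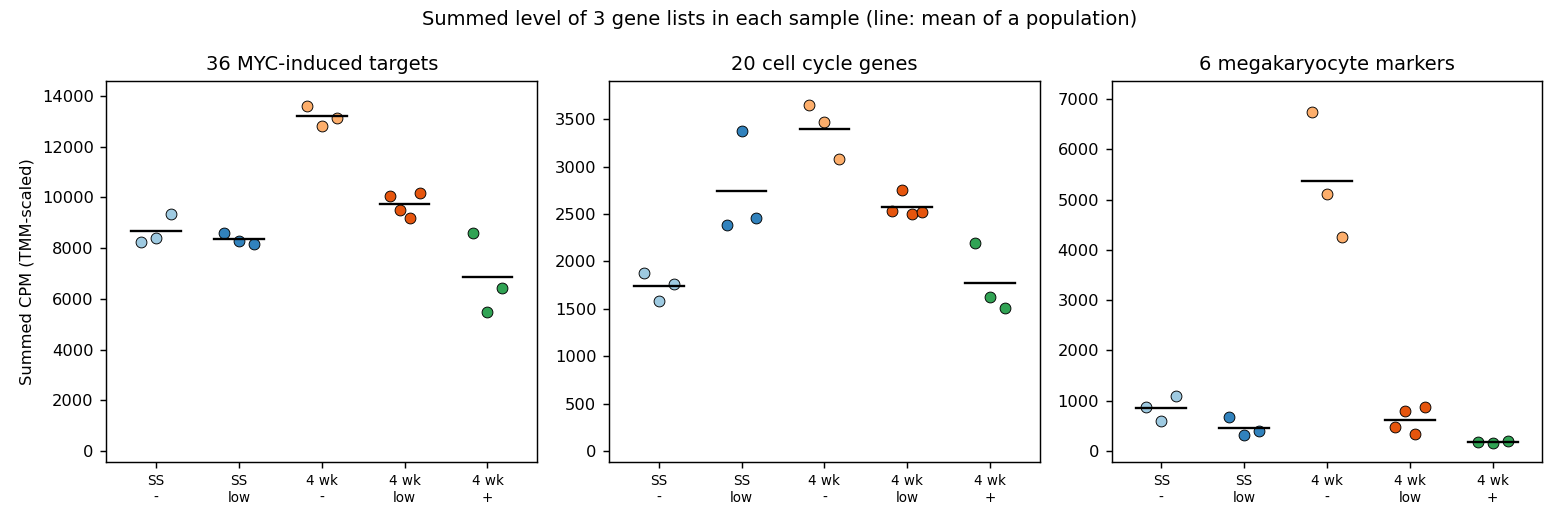
Summed CPM (vertical axes, from 0) of the 36 MYC-induced targets, the 20 cell cycle genes and the 6 megakaryocyte markers in the 5 populations, with 1 point a sample and a line at the mean. The 4 week MAC-1- points lie above all others for targets and megakaryocyte markers, and for cell cycle genes they overlap 1 SS MAC-1low sample.

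Of 20 cell cycle genes, edgeR called 2 lower in MAC-1+ than in MAC-1- HSCs at 4 weeks, and 18 had a log2 fold change under 0, with a median of -0.88. Over all genes tested 2.06% were called lower and the median was 0.07. At an unadjusted edgeR p under 0.05 there were 9 of the 20, beside 13.4% of all genes. DESeq2 called 6 in this comparison, beside 10.2%, and limma-voom 6, beside 6.52%. Tyms, thymidylate synthase, measured 88.4, 74.5 and 67.4 CPM against 319, 308 and 231 (-1.90, SE 0.39, adjusted p = 0.0186), and Mcm3, of the replicative helicase, 39.0, 65.2 and 44.7 against 101, 115 and 168 (-1.36, SE 0.38, adjusted p = 0.0939). Tyms was also lower than in SS MAC-1low (-1.98, edgeR adjusted p = 0.0469), the only 1 of the 20 called there, beside 1.42% of all genes. All 20 genes had a log2 fold change above 0 in 4 week MAC-1- versus SS MAC-1-, with a median of 1.09. Yet edgeR called 0 of them, beside 0.432% of all genes. At an unadjusted p under 0.05 there were 13, beside 10.4% of all genes. DESeq2 called 3, beside 6.83%, and limma-voom 0, beside 0.637%. The joint test called 1, Tyms, beside 2.22% of all genes. In the other 6 tests edgeR called 0, beside 0.0% to 2.36%. At an unadjusted edgeR p under 0.05 there were 0 to 6, beside 6.85% to 14%. DESeq2 called 0 to 2 (2.42% to 11.0% of genes) and limma-voom 0 or 1 (0.0% to 2.34%). At SS the list ran the other way: 17 of 20 log2 fold changes were above 0 in MAC-1low versus MAC-1-, with a median of 0.84. There 5 passed the unadjusted p of 0.05, beside 9.36%, and the sums were 2387 to 3371 against 1578 to 1883 CPM. In the interaction all 20 were under 0, with a median of -1.28, and 6 passed, beside 8.73%.

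Of 5 genes that MLX induces with MLXIP or MLXIPL, edgeR called 1 higher in MAC-1+ than in MAC-1- HSCs at 4 weeks. Of all genes tested, 1.19% were called higher there. Of the 5, 3 had a log2 fold change above 0 and 2 under 0. Txnip, the thioredoxin-interacting protein that curbs glucose uptake, measured 207, 254 and 276 CPM in the MAC-1+ and 67.4, 121 and 56.9 in the MAC-1- samples of week 4, a log2 fold change of 1.58 (SE 0.34, edgeR adjusted p = 0.0231). Mlx itself measured 9.02, 10.4 and 4.75 against 42.2, 8.98 and 31.8 CPM in the same samples, which overlapped. In the other 9 tests edgeR called 0 of the 5, beside 0.0% to 2.36% of all genes. At most 2 had an unadjusted p under 0.05, beside 6.85% to 14%. The 2 were in 4 week MAC-1- versus SS MAC-1-, beside 10.4%, where the median log2 fold change of the 5 was -0.61. DESeq2 and limma-voom each called at most 1, beside 2.42% to 11.0% and 0.0% to 2.66%.

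The remaining lists gave 0 calls by edgeR in all 10 tests, beside 0.0% to 3.25% of all genes. In MAC-1+ versus MAC-1- at 4 weeks, 13.4% of all genes passed an unadjusted p of 0.05, and DESeq2 called 10.2% and limma-voom 6.52%. Of 12 tested other E-box factors 2 passed it, and DESeq2 called 2 and limma-voom 0. Of 14 MYC cofactors it was 1, 1 and 1. Of 10 MXD and MNT corepressors it was 2, 1 and 1, with a median log2 fold change of -0.52. Of 16 genes of MYC protein turnover it was 3, 1 and 0. Of 10 MYC-repressed targets, such as CDK inhibitors, it was 1, 0 and 0, and 8 of the 10 had a log2 fold change above 0, with a median of 0.40. In the other 9 tests each of these lists had 0 to 4 genes at an unadjusted p under 0.05, with 0 to 3 DESeq2 and 0 or 1 limma-voom calls.

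Among 9679 tested genes with a mean of at least 100 counts, the log2 CPM of Trappc4 (Pearson r = 0.84), Btg3 (0.81), Rpl18-ps1 (0.80), Ndufa13 (0.80) and Vamp8 (0.79) followed Myc most closely over the 16 samples. For Mycn they were mt-Nd6 (r = 0.87), H2-Aa (0.85), Peg13 (0.82), Impact (0.81) and Srsf5 (0.81). These are descriptions over samples that share libraries and scaling with the genes compared.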

How the data were processed

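RNA of HSCs from 16 samples in 5 populations was amplified with SMART-Seq v4, which carries no molecular identifiers and no strand, and made into Nextera XT libraries. The authors deposited raw, unnormalized counts of reads per gene, after alignment with STAR in an nf-core pipeline. No source used here gives the counter, genome build or annotation. Samples and columns were mapped by their labels. Gene positions and exon lengths come from GENCODE M21 (GRCm38), matched by Ensembl identifier (98.2% of genes), not from the annotation of the authors.

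The main analysis ran in edgeR 4.0.16 (R 4.3.3): TMM factors, the default filter on low counts (13661 genes kept), 1 mean per population in 1 model of all samples, robust quasi-likelihood tests, and Benjamini-Hochberg adjustment over all genes tested. A gene was called at an adjusted p under 0.1. SE is the log2 fold change divided by the root of F. Scripts were tested on simulated data. DESeq2 1.42.0, weighted limma-voom (limma 3.58.1), size factors of DESeq2 in edgeR, other filters (none, or 50 counts in 3 samples), only the groups compared, detected genes as a covariate, a replicate block and leaving out each sample were alternatives. Log2 CPM used a prior count of 2. Plots used Python 3.11.15 and matplotlib 3.10.9.

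The members and gene lists were chosen with earlier results of these data known. All members are named with levels, with tests where the unadjusted p was under 0.05 and for Myc and Max in MAC-1+ versus MAC-1- at 4 weeks. Other Myc, Mycn and Mlx contrasts were added after their values were seen. Of each list, up to 4 called genes per direction and comparison are named by the size of the log2 fold change, and 5 genes each by correlation with Myc and Mycn. Of the lists, Mlxipl, Cip2a and Cdkn2b were not tested.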

Additional observations from a re-analysis of the deposited data

How the results depend on the processing

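Calls among the members depended on the tool. In MAC-1+ versus MAC-1- at 4 weeks, where edgeR called 0, DESeq2, weighted limma-voom, edgeR on the size factors of DESeq2 and the stricter filter each called 1, Mycn. DESeq2 also called 1 in 4 week MAC-1+ versus SS MAC-1- (Mxd1), 1 against SS MAC-1low (Mycn), 2 in 4 week MAC-1- versus SS MAC-1- (Mycn and Mxd3), 1 in MAC-1low versus MAC-1- at SS (Mxd3) and 1 in the joint test (Mycn), in comparisons where it called 5.6% to 11.0% of the genes given an adjusted p. In the joint test 1 (Mycn) was also called with no filter on low counts. Leaving out 1 sample gave 0 to 1 calls in MAC-1+ versus MAC-1- at 4 weeks (Mycn, without SS MAC-1- replicate 2 or SS MAC-1low replicate 1 or 2), and 0 to 1 (Mlx, without SS MAC-1- replicate 2) in the 3 comparisons with SS MAC-1-, the interaction and the joint test. The MYC-induced targets called in MAC-1+ versus MAC-1- at 4 weeks ran from 5 to 8 with 1 sample left out and were 3 with only those groups in the fit. This set of alternatives for the targets was added after the calls were seen.

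The log2 fold change of Max in MAC-1+ versus MAC-1- at 4 weeks turned from -0.03 to 0.047 with DESeq2, 0.048 with its size factors, 0.015 with no filter, 0.0026 with the stricter filter, 0.13 with detected genes as a covariate and 0.034 with the replicate block, and ran from -0.18 to 0.22 with 1 sample left out, with adjusted p of at least 0.962. The cause of these differences was not tested.

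Same-numbered samples of different populations had correlations from -0.025 to 0.040, under 0.1 in all 30 pairs, so the numbers were not taken to pair samples. The columns also carry serial labels whose order differs from these numbers. Correlations of samples with unlike numbers ran from -0.026 to 0.028, and no block by the serial labels was fitted. With the replicate block, edgeR called 0 members in all 10 tests, put the adjusted p of Mycn in MAC-1+ versus MAC-1- at 4 weeks at 0.168, and called 7 of the targets. At 3 or 4 samples a population, members near 0 such as Mxd3 cannot be told apart below a large fold, and PCR copies count as reads.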
